A study of Mus musculus with 8 samples.

Results

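The lipases of intracellular lipolysis and their direct regulators were followed, as 7 genes, in differentiated mouse adipocytes in which the atypical kinase Erk3, encoded by Mapk6, had been knocked down. These genes are Pnpla2, Lipe, Mgll, Abhd5, Abhd6, G0s2 and Hilpda, chosen by name as rows of the deposited count table. All 7 were among its 18088 genes, and all 7 passed the filter on low counts that left 17972 genes for testing.

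The cells were 3T3-L1, an immortalized mouse preadipocyte line that stores fat once differentiated, labelled wildtype in every sample. After differentiation they were detached and transfected with siRNA at 1.25 nM per cm2, either with siRNA against Erk3 (siErk3, n = 4) or with nontargeting control siRNA (siNTC, n = 4). Both groups therefore share the detachment and the transfection, and RNA was taken from cells used 48 hours later. Each arm is 1 reagent in 1 cell line, so loss of the kinase and any other effect of the siErk3 reagent cannot be told apart. The labels number the 4 libraries of a group but do not say whether they came from separate cultures. The p-values therefore judge the difference between the groups against the spread between these libraries, which may be technical.

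In fat cells, stored triacylglycerol is broken down in 3 steps. Adipose triglyceride lipase (ATGL, the product of Pnpla2) removes the first fatty acid, hormone-sensitive lipase (HSL, from Lipe) mainly the next, and monoacylglycerol lipase (from Mgll) the last, leaving glycerol. Abhd6 encodes a further monoacylglycerol hydrolase. ATGL works poorly without its coactivator CGI-58, encoded by Abhd5, which perilipin 1 holds on the droplet surface until the cell is stimulated. G0s2 and Hilpda encode small proteins that bind ATGL and inhibit it.

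Pnpla2 had the largest fall of the 7 genes, to 17.0% of its siNTC level. G0s2 fell to 45.2%, Hilpda to 60.8%, Lipe to 65.0% and Mgll to 74.0%. Abhd6 rose to 134% and Abhd5 to 112% of siNTC, the change in Abhd5 being the only one of the 7 that did not pass every alternative analysis. The ratio of Pnpla2 to Abhd5 was 6.63-fold lower in siErk3, and Pnpla2 changed from the most abundant of the 7 transcripts per length to the third.

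The upstream sequence of 6 of these genes is shown because they cover both directions of change, Pnpla2 and G0s2 having the largest falls, Lipe and Mgll smaller ones, and Abhd6 and Abhd5 the rises, of which that of Abhd6 passed every alternative analysis. Each line gives the 250 bases before a RefSeq transcription start in GRCm38.p6, 5′ to 3′ on the strand of the gene. Capitals mark every match, on either strand, to 1 of 6 motifs, which were chosen with the sequences in view. The motifs were the FOXO core GTAAACA, found in 3.17% of the 32851 promoters of the same length, the GC box GGGCGG (32.7%), the hypoxia response core ACGTG (16.6%), the interferon response element (2.98%), the TATA box TATAAA (12.4%) and the PPAR direct repeat (0.033%). The windows lie at chr7:141454938-141455187 (plus strand) for Pnpla2, chr1:193273189-193273438 (minus) for G0s2, chr7:25390113-25390362 (minus) for the more downstream of both Lipe starts, chr6:88724162-88724411 (plus) for the more upstream Mgll start, chr14:8002638-8002887 (plus) for the more upstream Abhd6 start and chr9:122351366-122351615 (plus) for Abhd5.
Pnpla2: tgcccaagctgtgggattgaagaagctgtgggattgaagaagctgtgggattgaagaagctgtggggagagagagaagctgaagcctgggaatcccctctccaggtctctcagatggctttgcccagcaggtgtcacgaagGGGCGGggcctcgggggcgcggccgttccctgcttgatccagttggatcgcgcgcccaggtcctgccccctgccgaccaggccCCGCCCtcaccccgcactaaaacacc
G0s2: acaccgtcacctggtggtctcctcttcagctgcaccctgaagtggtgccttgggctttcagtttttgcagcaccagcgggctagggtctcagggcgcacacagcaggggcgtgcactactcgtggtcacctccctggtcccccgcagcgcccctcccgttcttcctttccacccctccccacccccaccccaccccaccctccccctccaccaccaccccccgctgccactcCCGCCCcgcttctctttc
Lipe: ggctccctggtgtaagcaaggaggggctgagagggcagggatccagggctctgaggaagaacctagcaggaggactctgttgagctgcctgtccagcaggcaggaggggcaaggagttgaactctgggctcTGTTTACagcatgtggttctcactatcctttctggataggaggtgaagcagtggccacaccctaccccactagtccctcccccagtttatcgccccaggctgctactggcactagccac
Mgll: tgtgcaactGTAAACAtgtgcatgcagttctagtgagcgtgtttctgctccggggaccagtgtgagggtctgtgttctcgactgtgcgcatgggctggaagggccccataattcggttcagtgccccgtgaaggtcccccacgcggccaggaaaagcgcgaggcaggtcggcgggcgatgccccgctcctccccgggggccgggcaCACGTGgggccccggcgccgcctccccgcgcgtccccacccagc
Abhd6: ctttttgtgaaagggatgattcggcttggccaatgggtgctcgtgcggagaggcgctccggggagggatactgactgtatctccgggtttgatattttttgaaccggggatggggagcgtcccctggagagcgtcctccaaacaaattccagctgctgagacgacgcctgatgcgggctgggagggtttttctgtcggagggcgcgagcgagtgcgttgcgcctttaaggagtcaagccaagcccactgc
Abhd5: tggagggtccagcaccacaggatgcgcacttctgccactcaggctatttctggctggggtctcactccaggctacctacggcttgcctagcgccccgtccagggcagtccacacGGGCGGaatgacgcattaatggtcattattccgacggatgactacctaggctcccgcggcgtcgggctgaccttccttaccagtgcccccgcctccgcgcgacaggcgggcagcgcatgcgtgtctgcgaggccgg

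In these windows Pnpla2 had 2 GC boxes, 109 and 26 bases before the start, while G0s2 had 1 at 18 bases and Abhd5 1 at 136 bases. The Abhd6 window shown had no match. GENCODE starts G0s2 and Lipe further upstream, so the G0s2 GC box and the Lipe window shown lie within the gene spans given below. The FOXO core was present at the Lipe start shown, 119 bases before it, and at the Mgll start shown, 241 bases before it. It was absent from the other Lipe start, which had 6 GC boxes and CACGTG, and from the other Mgll start, which had 1 GC box and 1 hypoxia response core. Where RefSeq gives 2 starts, the one shown is that with the lower genomic coordinate. For Lipe and Mgll it is thus also the only one with the FOXO core. Sequence further upstream than these windows was not searched for any gene. The Mgll window shown also held CACGTG, in which the hypoxia response core reads on both strands and overlaps itself. Of the remaining windows, the other Abhd6 start had 1 GC box, 1 Hilpda start had 1 GC box and the other had 1 hypoxia response core. Over the 11 promoters that RefSeq gives the 7 genes, no match to the PPAR direct repeat, the interferon response element or the TATA box was found, which says only that these letters are not in these windows. A match describes the sequence and does not by itself show a binding site.

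The libraries held 9854522 to 9943572 counts each. Levels are given as CPM, the count of a gene scaled to the depth of its library and to TMM factors, which align the bulk of genes between libraries, and fold changes come from edgeR's quasi-likelihood test with Benjamini-Hochberg adjustment over all genes tested. Mapk6, the targeted gene, fell from 579 ± 18.1 CPM (SD, n = 4) in siNTC to 69.6 ± 4.80 CPM in siErk3, and every library of each group followed its label. Over all genes tested, 4275 (23.8%) were lower in siErk3 and 4470 (24.9%) were higher at an adjusted p under 0.05. That split was 3139 lower and 5849 higher with library sizes alone as the scaling, and 5394 lower and 3556 higher with upper-quartile factors. In 43.2% of the genes tested, every library of 1 group lay above every library of the other in CPM.

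Against this broad background, 5 of the 7 genes were lower and 2 were higher, and for all 7 the groups did not overlap. The median log2 fold change of the 7 was -0.62, against 0.00 for all genes tested. With so many genes called in both directions, that all 7 passed is less informative than the sizes of their changes. Pnpla2 ranked 11 from the lowest log2 fold change among all genes tested and G0s2 ranked 270, whereas 63.1% of the genes tested changed more than Abhd5 in absolute terms.

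**Figure D1:**
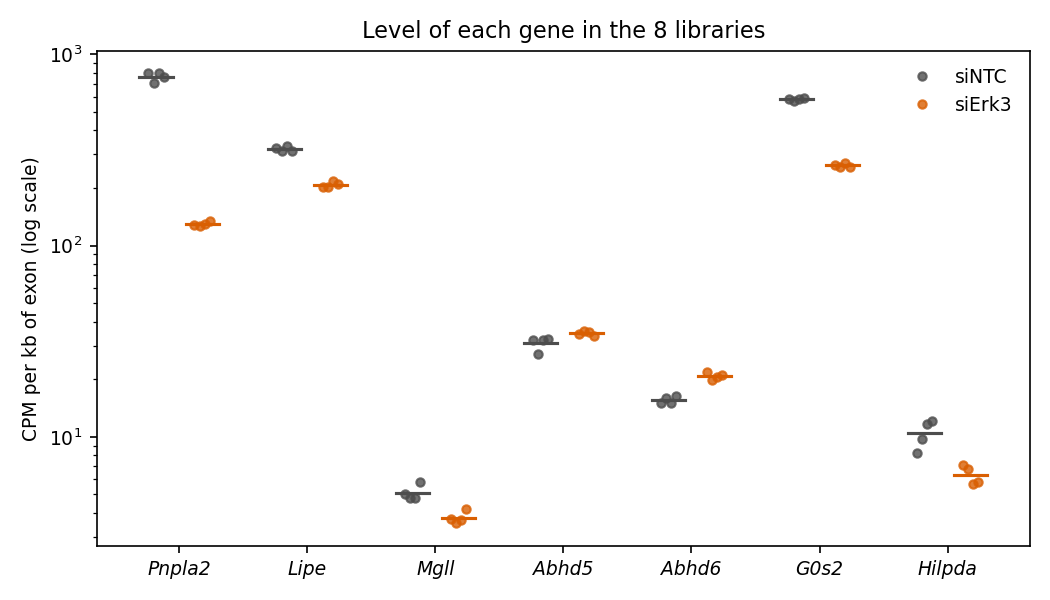
Level of each gene per kb of exon (log scale) in the 4 siNTC (grey) and 4 siErk3 (orange) libraries, with points for libraries and lines for group means. Pnpla2 falls from 764 to 130 CPM per kb, and no gene has overlapping groups.

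Pnpla2 (chr7:141455198-141460743, plus strand, mm10) was measured at 2402, 2133, 2404 and 2287 CPM in siNTC replicates 1 to 4, and at 389, 384, 390 and 405 CPM in the siErk3 replicates. The 4 siErk3 libraries lay within a narrow band, and the lowest control library was far above the highest of them. The mean went from 2307 ± 128 to 392 ± 8.79 CPM (SD, n = 4), a log2 fold change of -2.56 with a standard error of 0.06 (edgeR adjusted p = 2.12e-21). This was a 5.89-fold lower level. In bulk RNA, fewer cells of a type and less RNA per cell cannot be told apart, here or in the results that follow.

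Lipe (chr7:25379527-25398710, minus strand), the diacylglycerol lipase of the cascade, was at 1917, 1836, 1951 and 1829 CPM in siNTC and at 1196, 1185, 1284 and 1232 CPM in siErk3. The groups were clearly apart, with a log2 fold change of -0.62 ± 0.05 (SE; edgeR adjusted p = 4.06e-10), much smaller in size than that of Pnpla2. Mgll (chr6:88724412-88828360, plus strand), which completes the cascade, was a low transcript at 25.4, 24.4, 24.3 and 29.6 CPM in siNTC and 18.8, 17.97, 18.7 and 21.3 CPM in siErk3. It rested on 233 to 281 counts per control library and 182 to 215 per siErk3 library, with a log2 fold change of -0.43 ± 0.08 (SE; edgeR adjusted p = 0.000166).

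Abhd6 (chr14:8002902-8056763, plus strand), the other monoacylglycerol hydrolase, moved the opposite way. Its siNTC libraries were at 35.7, 37.6, 35.7 and 38.6 CPM, and its siErk3 libraries at 51.8, 46.8, 48.8 and 49.7 CPM. Every siErk3 library was above every control, and the log2 fold change was 0.42 ± 0.06 (SE; edgeR adjusted p = 3.98e-06).

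Abhd5 (chr9:122351608-122381524, plus strand), the ATGL coactivator, was at 190, 162, 190 and 193 CPM in siNTC and at 205, 213, 210 and 200 CPM in siErk3. The groups did not overlap, but 3 of the controls lay just below the siErk3 libraries and siNTC replicate 2 stood well apart from them. The log2 fold change was 0.17 ± 0.06 (SE; edgeR adjusted p = 0.0165). It was 0.11 without siNTC replicate 2 (edgeR adjusted p = 0.071) and 0.10 with upper-quartile factors (edgeR adjusted p = 0.15), so the rise in Abhd5 rested on 1 control library and on the scaling.

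Of the inhibitors, G0s2 (chr1:193272161-193273217, minus strand) was at 507, 497, 510 and 515 CPM in siNTC and at 231, 224, 236 and 225 CPM in siErk3. Its libraries were the tightest of the 7 genes in siNTC, with a coefficient of variation of 1.52%, and its log2 fold change was -1.15 ± 0.05 (SE; edgeR adjusted p = 1.66e-15). Hilpda (chr6:29272488-29275446, plus strand) was the lowest of the 7 in CPM, at 9.06, 10.7, 12.8 and 13.4 CPM in siNTC and 7.83, 7.502, 6.23 and 6.43 CPM in siErk3. The lowest control was near the highest siErk3 library, and these levels came from 87 to 127 and from 64 to 81 counts. The log2 fold change of Hilpda was -0.72 ± 0.13 (SE; edgeR adjusted p = 9.09e-05).

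Transcript levels can be compared between genes only per length, so CPM was divided by the kb of exon that GENCODE annotates for each gene. In siNTC the order was Pnpla2 at 764 CPM per kb, G0s2 at 582, Lipe at 320, Abhd5 at 30.9, Abhd6 at 15.6, Hilpda at 10.4 and Mgll at 5.10. In siErk3 the order was G0s2 at 263 CPM per kb, Lipe at 208, Pnpla2 at 130, Abhd5 at 34.7, Abhd6 at 20.8, Hilpda at 6.34 and Mgll at 3.78. No neighbours in either order had overlapping ranges over the 4 libraries. With the longest transcript as the length, Lipe (330 CPM per kb) stood above G0s2 (263) in siErk3, and the rest of the order was the same.

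The combined level of the 4 hydrolases Pnpla2, Lipe, Mgll and Abhd6 went from 1104 ± 50.5 to 362 ± 9.20 CPM per kb (SD, n = 4). Pnpla2 held 69.1% ± 0.778 of that sum in siNTC and 35.8% ± 0.731 in siErk3. Lipe went from 29.0% ± 0.713 to 57.4% ± 0.901, and so became the larger part. Abhd6 went from 1.42% to 5.75% of the sum and Mgll from 0.463% to 1.04%. Shares of a sum are tied to each other, so a gene that fell can still take a larger share, as Lipe and Mgll did.

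Ratios between the genes were then taken within each library, where the scaling between libraries has no part. The ratio of ATGL transcript to that of its coactivator, Pnpla2 to Abhd5, was 24.9, 26.0, 24.9 and 23.4 per kb in siNTC and 3.74, 3.56, 3.66 and 4.00 per kb in siErk3. The lowest control ratio was several times the highest siErk3 ratio, and the log2 difference was -2.73 ± 0.05 (SE). In an exact two-sided permutation test over the libraries p was 0.0286, the smallest that 4 against 4 allows, and 0.0321 after Benjamini-Hochberg adjustment over the 9 ratios tested. The same exact p held for 8 of the 9 ratios, so the sizes of the differences tell them apart and the p-values do not.

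Pnpla2 also fell relative to both inhibitors. The ratio of Pnpla2 to G0s2 was 1.37, 1.24, 1.36 and 1.28 per kb in siNTC and 0.486, 0.495, 0.475 and 0.517 in siErk3, so the lipase transcript was above the inhibitor transcript in every control library and below it in every siErk3 library. The log2 difference was -1.41 ± 0.04 (SE). For Pnpla2 to Hilpda the ratio was 62.5 to 96.8 per kb in siNTC and 18.1 to 23.0 in siErk3, with a log2 difference of -1.85 ± 0.16 (SE).

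The ratios of the coactivator to the inhibitors rose, mostly through lower inhibitor transcripts. The log2 fold changes were 0.17 for Abhd5, -1.15 for G0s2 and -0.72 for Hilpda, and that of Abhd5 did not pass every alternative analysis. The ratio of Abhd5 to G0s2 was 0.0549, 0.0477, 0.0545 and 0.0548 per kb in siNTC and 0.130, 0.139, 0.130 and 0.129 in siErk3, a log2 difference of 1.32 ± 0.06 (SE). Abhd5 remained far below G0s2 in all 8 libraries. Abhd5 to Hilpda went from 3.03 ± 0.578 to 5.52 ± 0.603 per kb (SD, n = 4; log2 difference 0.88 ± 0.15, SE).

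Along the cascade, the ratio of Pnpla2 to Lipe was 2.44, 2.26, 2.40 and 2.44 per kb in siNTC and 0.633, 0.632, 0.592 and 0.640 in siErk3. The order of both lipases was thus inverted in all 4 siErk3 libraries, with a log2 difference of -1.93 ± 0.04 (SE). The ratio of Lipe to Mgll, in contrast, was 53.4 to 69.2 per kb in siNTC and 49.99 to 59.3 in siErk3. These ranges overlapped, and the log2 difference of -0.19 ± 0.10 (SE) did not pass the exact permutation test (p = 0.114). Mgll to Abhd6 went from 0.327 ± 0.0232 to 0.181 ± 0.0125 per kb (log2 difference -0.85 ± 0.07, SE), and G0s2 to Hilpda from 57.1 ± 10.1 to 41.9 ± 5.23 (log2 difference -0.44 ± 0.15, SE).

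**Figure D2:**
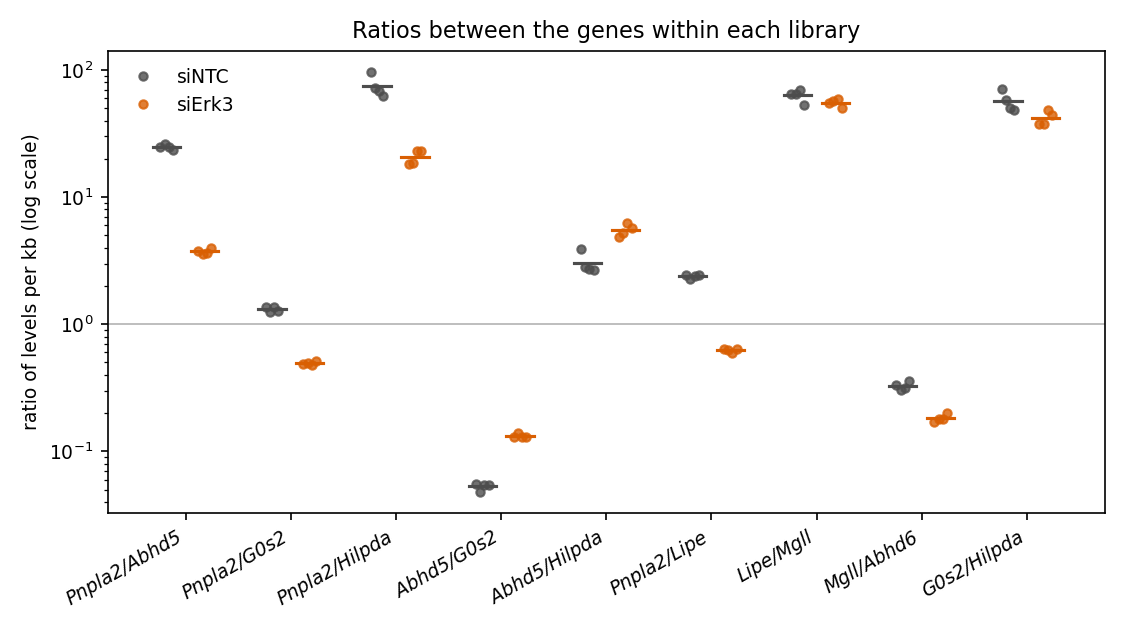
Ratios of levels per kb between pairs of the genes (log scale) in the 4 siNTC (grey) and 4 siErk3 (orange) libraries, with lines for group means and a thin line at a ratio of 1. Pnpla2 to G0s2 and Pnpla2 to Lipe cross 1 between the groups, whereas the Lipe to Mgll ranges overlap.

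Adipocyte genes in general were also lower in siErk3. Of 16 adipocyte markers, all measured, 15 fell and 1 rose, beside 23.8% lower and 24.9% higher over all genes tested. The median of the markers was -0.77 on the log2 scale. Their summed level went from between 33375 and 36019 CPM in siNTC to between 20039 and 21195 CPM in siErk3. The most abundant that fell were Lpl, Fabp4, Adipoq and Gpd1, at log2 fold changes of -0.86, -0.67, -0.83 and -0.62. Cd36, a fatty acid transporter, was the marker that rose (log2 fold change 0.19). None of the 16 was at 0 in a group, and Lep was the lowest, at a mean of 10.2 CPM over the 8 libraries.

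Each of the 7 genes was therefore set beside these markers within each library, as the log2 of its level over their geometric mean, which itself fell by 0.78 on the log2 scale. Relative to that reference Pnpla2 was still lower in siErk3 by a log2 difference of -1.78 ± 0.03 (SE) and G0s2 by -0.37 ± 0.03, while Abhd5 was higher by 0.95 ± 0.04 and Abhd6 by 1.19 ± 0.05. Each of these had an exact permutation p of 0.0286 (0.0333 adjusted over the 7 genes). The median log2 CPM of the markers rests on those in the middle by level, Pparg and Cebpa. Their log2 fold changes were -0.13 and -0.54, and this reference fell by 0.33. With it, the differences were -2.22 for Pnpla2, -0.81 for G0s2, 0.51 for Abhd5 and 0.75 for Abhd6. For Lipe the difference was 0.16 ± 0.04 with the geometric mean but -0.29 with the median, and for Mgll it was 0.35 ± 0.06 but -0.10. The log2 fold changes of Lipe (-0.62) and Mgll (-0.43) were smaller falls than the markers' median fold change of -0.77. Lipe fell more than the median reference, which rests on Pparg and Cebpa. Mgll could not be told from that reference, as its groups overlapped (exact permutation p = 0.314). For Hilpda the difference was 0.07 ± 0.15 with the geometric mean (exact permutation p = 0.686), -0.04 without siNTC replicate 1 and -0.37 with the median.

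**Figure D3:**
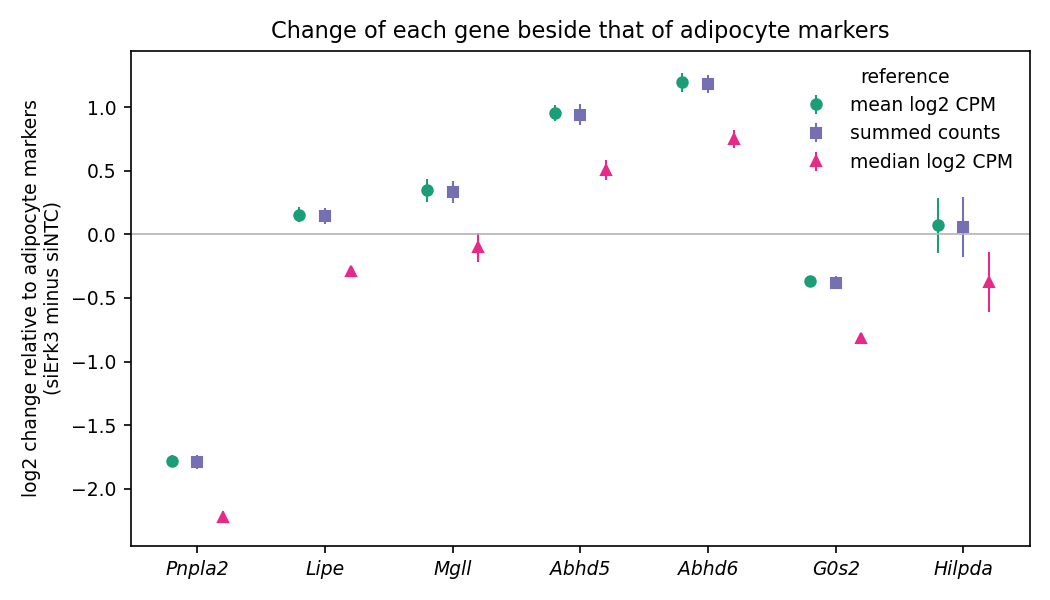
Change of each gene between siErk3 and siNTC relative to 16 adipocyte markers (log2 scale) under 3 ways of summarising the markers, with points for the difference of group means and bars for the pooled SD over libraries. Pnpla2 and G0s2 lie below 0 and Abhd5 and Abhd6 above it for every reference. Lipe, Mgll and Hilpda lie above 0 except with the median, which rests on Pparg and Cebpa. The groups overlapped for Mgll with the median and for Hilpda with every reference.

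Of 16 other hydrolases measured, 6 fell, 8 rose and 2 did not pass the test, with a median log2 fold change of 0.11. Beside this, 23.8% of all genes tested fell and 24.9% rose. Lpl, which acts on circulating lipoproteins, had a log2 fold change of -0.86, the patatin-like Pnpla3 -0.44, the carboxylesterase Ces1d -0.64 and the phospholipase Ddhd2 -0.69. Among those that rose were Abhd4 (log2 fold change 0.73) and Abhd12 (0.64), relatives of Abhd5 and Abhd6, as well as Abhd16a (0.30) and the lysosomal acid lipase Lipa (0.19). Daglb and Ddhd1, at log2 fold changes of 0.06 and -0.09, did not pass.

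Proteins of the droplet surface and close partners of the lipases mostly fell, with 8 lower, 1 higher and 2 not passing of 11 measured. Among all genes tested, 23.8% were lower and 24.9% higher. The log2 fold change of the list had a median of -0.66. Plin1, which holds CGI-58 away from ATGL, went from 1888 ± 33.4 to 1072 ± 18.7 CPM (SD, n = 4; log2 fold change -0.82). Cidec, which promotes droplet fusion, had a log2 fold change of -1.23, Fabp4, which carries fatty acids, -0.67, and Cav1, a caveolar coat protein, -0.66. Plin2 was the member of the list that rose (log2 fold change 0.29). Plin4 and Plin3, at -0.12 and -0.10, did not pass.

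Of 17 factors listed as acting on ATGL or on the Pnpla2 gene, 5 fell, 5 rose and 7 did not pass, with a median log2 fold change of -0.07. The list includes Mapk6 and Mapkapk5, whose link to Pnpla2 is proposed by the study itself. Over all genes tested, 23.8% fell and 24.9% rose, so the shares of this list were near the background. Those that fell include Mapk6, the knockdown target, whose fall was set by the design. The transcription factors Stat5a (log2 fold change -0.55), Foxo1 (-0.19) and Pparg (-0.13) were also lower. Arf1 (0.20) and Gbf1 (0.16), which take part in delivering ATGL to droplets, and Serpinf1 (0.53) and Stat5b (0.27) rose. The remaining calls, named after their values were seen, were Irf4, which was lower (-0.70) at a mean of 1.32 CPM, and Egr1, an immediate early transcription factor, which was higher by 2.41 on the log2 scale. Mapkapk5, a substrate and partner of Erk3, was at 32.8 ± 2.75 and 32.4 ± 1.19 CPM in siNTC and siErk3 (edgeR adjusted p = 0.873), while Copb1 and Sp1 were at log2 fold changes of -0.13 and -0.12 and did not pass. The count of 5 lower was 2 with library sizes alone and ranged from 3 to 7 when 1 library was left out, being 3 without siNTC replicate 1, siErk3 replicate 1 or siErk3 replicate 4.

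Of 20 genes that carry hormonal signals to the lipases, 10 fell, 4 rose and 6 did not pass, with a median log2 fold change of -0.20. The shares over all genes tested were 23.8% lower and 24.9% higher. Pde3b, which breaks down cAMP, had a log2 fold change of -1.06, and Prkar2b, a regulatory subunit of protein kinase A, -0.84. The insulin receptor gene Insr (-0.24) and the adenylyl cyclase gene Adcy6 (-0.19) were also lower. The stimulatory G protein gene Gnas (0.30), the inhibitory Gnai2 (0.40), Akt1 (0.17) and the low Adrb1 (0.49) rose. Akt2 and Prkaca, at 0.08 and -0.10, did not pass. Named after their values were seen, the fatty acid receptor gene Ffar4 (log2 fold change -2.83) and the adipocyte beta-adrenergic receptor gene Adrb3 (-1.31) had the largest falls of this list. Lpl, Fabp4, Cidec, Pparg and Adrb3 each stand both among the adipocyte markers and in another of these lists.

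**Figure D4:**
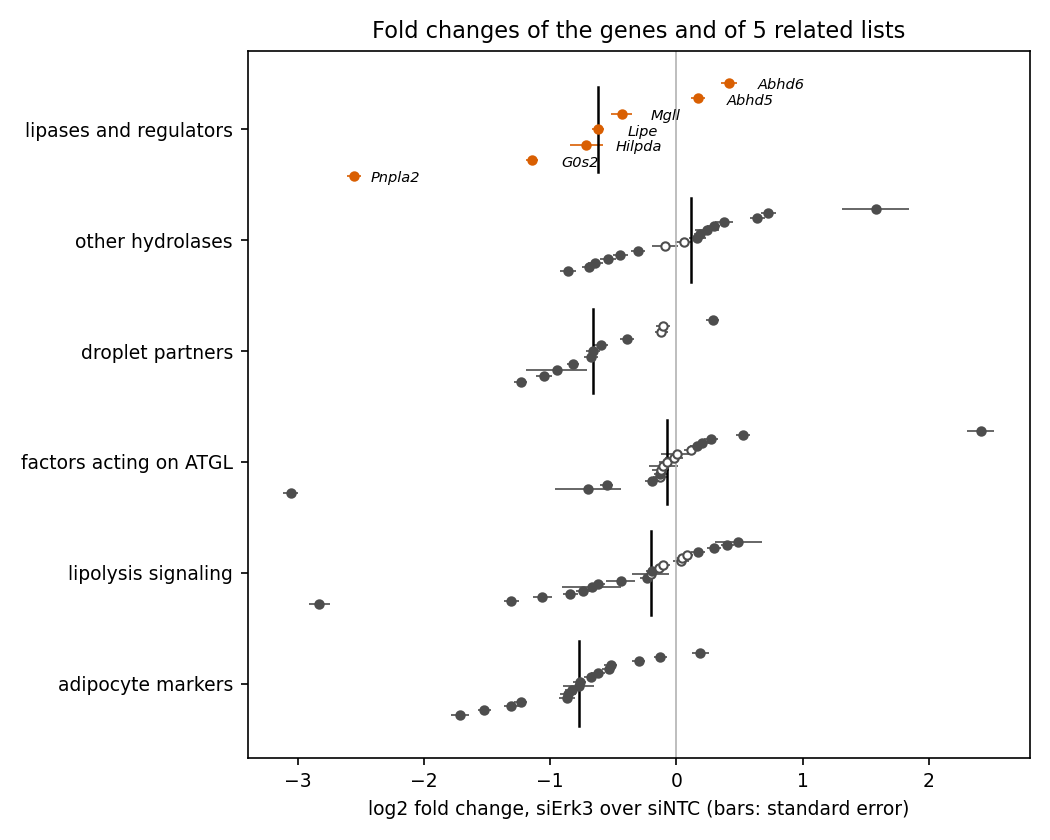
Log2 fold change of siErk3 over siNTC for the 7 genes (orange) and the measured genes of 5 related lists (grey), with bars for the standard error, open circles for genes that did not pass the test and a vertical bar for each list's median. Pnpla2 lies at -2.56, apart from the other 6 genes, and the medians of the droplet partners (-0.66) and adipocyte markers (-0.77) are near that of the 7 genes (-0.62).

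Markers of other cells and states moved between the groups as well, beside shares over all genes tested of 23.8% lower and 24.9% higher. All 20 interferon-stimulated genes listed rose, from a summed 158 to 172 CPM in siNTC to 5953 to 6143 CPM in siErk3, and their part in the changes of the 7 genes was not tested. Of 9 preadipocyte markers measured, 7 fell, 1 rose and 1 did not pass (median log2 fold change -0.58), with Dlk1 going from 51.1 to 7.71 CPM, Col3a1 at -0.30, Fn1 at -0.24 and Col1a1 at -0.66. The preadipocyte marker that rose was Ly6a (log2 fold change 6.46), and Col1a2, at 0.13, did not pass. Of 8 macrophage markers 3 were measured, with Cd14 and Cd68 higher, Csf1r not passing and a sum of 9.89 to 14.5 CPM in siNTC and 20.4 to 25.0 CPM in siErk3. Of 6 endothelial markers 1 was measured, Pecam1, at 0.914 and 1.35 CPM, and it did not pass.

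Other annotated genes lie over the spans of 4 of the 7 genes, on the opposite strand. The library kit does not mark strand, and the program that counted reads is not given in the sources used here. Lipe lies wholly within the span of the antisense gene 4732471J01Rik, with 918 exonic bases in common, or 15.6% of the Lipe exons. Counts of 4732471J01Rik were 1.03 to 1.04 times those of Lipe in all 8 libraries. The level of 4732471J01Rik exceeded that of Lipe by 53.6 ± 2.87 CPM in siNTC and 39.9 ± 1.79 CPM in siErk3 (SD). From these counts alone, reads given to both genes cannot be assigned to either, and the part of shared reads was not tested.

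G0s2 lies wholly within the span of Lamb3, a laminin subunit gene, but shares no exonic base with it. Lamb3 nevertheless went from 704 ± 9.67 to 429 ± 7.998 CPM (SD, n = 4; log2 fold change -0.71). Its level exceeded that of G0s2 by 196 ± 8.97 CPM in siNTC and 200 ± 3.04 CPM in siErk3, so the excess differed little while both counts fell. In CPM the fall counted for Lamb3 was therefore about that of G0s2, and the part of shared reads in it was not tested. Whether reads were counted over whole gene spans was not tested, and the levels per kb given above take all counts as exonic. For Abhd5, the antisense gene A730085K08Rik shares 950 exonic bases (15.95% of the Abhd5 exons) and rose from 19.7 to 27.8 CPM. Abhd5 itself went from 184 to 207 CPM, and the part of shared reads in either rise was not tested. For Mgll, Gm26588 shares 167 bases and had 2.97 and 1.96 CPM.

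**Figure D5:**
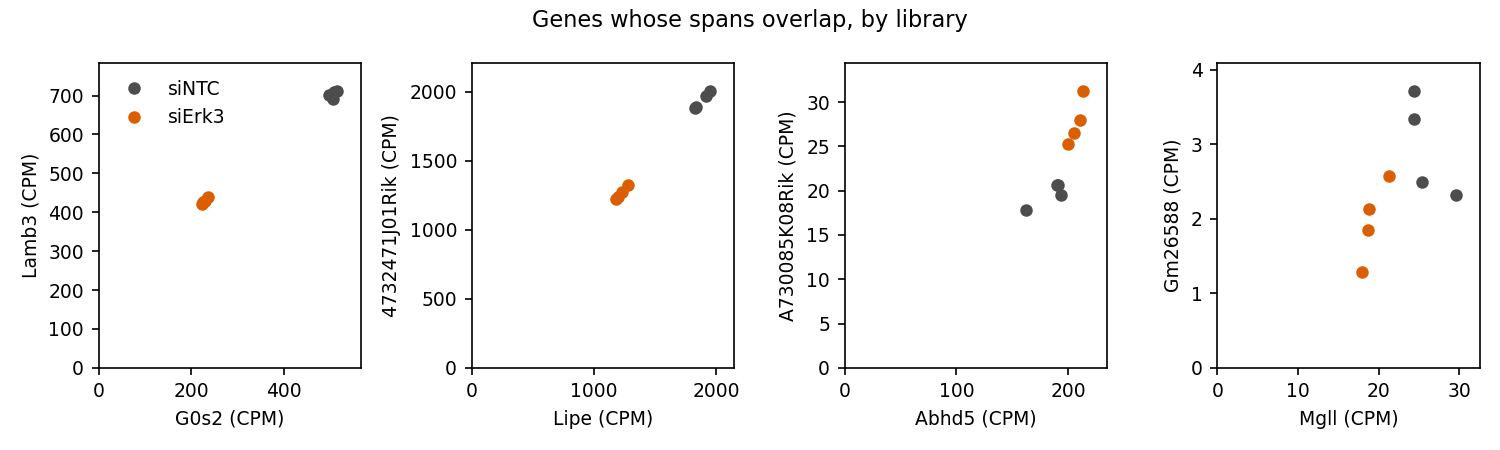
CPM of 4 of the genes (x axes) against the CPM of the gene whose span overlaps theirs (y axes), 1 point per library, siNTC in grey and siErk3 in orange. Lamb3 lies about 200 CPM above G0s2 in both groups, and 4732471J01Rik follows Lipe closely in all 8 libraries.

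For each of the 7 genes, the genes with the most similar pattern were sought by the Pearson correlation of log2 CPM over the 8 libraries, among those averaging 10 CPM or more. These values are dominated by the difference between the groups, which the 8 points share. Pnpla2 was most like Uck1 (r = 0.9995), Plin1 (0.9992) and Acsl1 (0.9987), and 160 genes had an r over 0.99 with it. G0s2 was most like Lamb3 (0.9994), Plin1 (0.9994) and Pfkfb3 (0.9988), and Lipe like 4732471J01Rik, Cluh and Col15a1. Lamb3 and 4732471J01Rik are the genes whose spans hold G0s2 and Lipe, and the part of shared reads in these 2 likenesses was not tested. The lower or less changed genes had looser neighbours, with r at most 0.988 for Hilpda (Dxo, Gm13181 and Minos1) and 0.983 for Mgll (Rps3a2, Tmem69 and Pabpc1). The nearest genes to Abhd5 were Tmem232 (0.9905), Gng10 and Asna1, and those to Abhd6 were Chmp4b (0.993), Ddit3 and Syde1.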

How the data were processed

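Poly(A) RNA of 8 samples, 4 siErk3 and 4 siNTC grouped by their titles, was sequenced on a NextSeq500. The authors deposited a table of read counts per gene, not normalized, in which all 18088 genes exceed 1 CPM in at least 4 libraries. The submitters' processing notes name bcl2fastq, FastQC, Bowtie2, edgeR and mm10, without a counting program. A table of the authors' own comparison (log2 fold changes, average log2 CPM, p-values) was not used.

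Counts were tested with edgeR 4.0.16 (R 4.3.3; filterByExpr with a minimum count of 10, TMM, quasi-likelihood test, Benjamini-Hochberg adjustment, calls under 0.05). Ratios used exact two-sided permutation tests over the 70 arrangements of the libraries. Genes were placed with GENCODE M21 (mm10), and promoters taken from RefSeq (GRCm38.p6), which matched all 7 genes. No batch was labelled. All 12 within-group pairs of libraries differed by more than sampling noise, so none was treated as a duplicate. The edgeR fit was tested on simulated counts in which few genes changed, balanced in direction, unlike these data. The ratio, marker-reference, promoter and overlap steps were not simulated.

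The 7 genes and the lists were chosen with earlier results of these data known. From each other list, up to 4 called genes per direction and 2 uncalled ones were named by abundance, with Mapk6, Mapkapk5, overlapping genes and the 3 nearest patterns of each gene. Alternatives were DESeq2 1.42.0, limma 3.58.1 (voom), other scalings and filters, a replicate block, other references and leaving out each library.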

Additional observations from a re-analysis of the deposited data

Results flagged for a closer look

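In 6 of 50 groups of 4 values checked, 1 library lay apart from the other 3 by Dixon's criterion, against 2.5 expected by chance at 1 in 20. The groups include ratios built from the same counts, so they are not independent and 1 value can be flagged more than once. Abhd5 was at 162 CPM in siNTC replicate 2, where the other controls were at 190 to 193 CPM. In the same library the ratio of Abhd5 to G0s2 was 0.0477 per kb, below the 0.0545 to 0.0549 of the other controls. In siErk3 replicate 2 that ratio was 0.139, above the 0.129 to 0.130 of the others. The ratio of Abhd5 to Hilpda was 3.89 in siNTC replicate 1 and 2.68 to 2.79 in the other controls. In siErk3 replicate 3, Pnpla2 to Lipe was 0.592 against 0.632 to 0.640, and the log2 level of Lipe over the adipocyte markers was 1.56 against 1.503 to 1.505.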

How the results depend on the processing

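Over 32 results, the falls of Pnpla2, Lipe, Mgll, G0s2 and Hilpda and the rise of Abhd6 kept their direction and passed the test under every alternative fit, and the 5 genes called lower were 5 throughout. The number called higher was 1 with upper-quartile factors (Abhd5 at a log2 fold change of 0.10) and 1 to 2 when 1 library was left out, Abhd5 being lost without siNTC replicate 2 (log2 fold changes 0.11 to 0.19 over left-out libraries). The factors acting on ATGL called lower were 2 with library sizes alone and 3 to 7 with 1 library left out. With the median of the adipocyte markers as the reference, the log2 differences of Lipe, Mgll and Hilpda turned to -0.29, -0.10 and -0.37. The groups overlapped there for Mgll and Hilpda. With the geometric mean, the difference of Hilpda ran from -0.04, without siNTC replicate 1, to 0.13 over left-out libraries. That median is set by the markers in the middle by level, Pparg and Cebpa, with log2 fold changes of -0.13 and -0.54. The geometric mean averages all 16, whose median log2 fold change was -0.77. Ratios within a library with 1 library left out or paired cannot pass 0.05, since the smallest exact p is 0.0571 for 3 against 4 and 0.125 for 4 pairs. The share of higher and lower calls over all genes moved with the scaling, as given above. The replicate numbers did not pair the libraries, the deviations of same-numbered libraries correlating at 0.012, -0.00047, 0.055 and -0.016. Not every library correlated best with its own number. With the number as a replicate block, 5 of the 7 genes were lower and 2 higher, all genes gave 4292 lower and 4501 higher calls, and no call on the 7 genes changed. Mgll and Hilpda rest on at most 281 and 127 counts a library, which limits their precision.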
